A study of Mus musculus with 6 samples.

Results

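ATAC-seq peaks were examined inside the longest protein-coding genes of the mouse genome. Peaks were taken from the list of wild-type (WT) cells and the list of Spen KO clone 3, called KO here. A peak was kept when it was autosomal, its midpoint lay inside a coding gene annotated at 500 kb or more, and the midpoint was over 1 kb from the transcription start site (TSS) of every coding transcript. Chromosome 1 from 100 to 130 Mb was left out. The rule kept 552 of 22753 WT peaks and 692 of 23722 KO peaks, in 172 of 184 such genes. A peak was called shared when at least 1 bp of it overlapped the other list, and otherwise WT-only or KO-only.

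The lines, HATX WT and SpenKO, are mouse embryonic stem cells (mESCs) with a mixed genomic background. All are haploid and express Xist from a transgene when given doxycycline, and the SpenKO lines lack Spen. They were grown without doxycycline or with 2 ug/ml for 48 hr. ATAC-seq marks open chromatin through the insertion of adapters by the Tn5 transposase. Spen KO clone 2 was not analysed here. Each line has 1 list, made by the authors from 2 technical replicates, and the lists do not state the doxycycline treatment. Spen KO clone 3 is a single clone, so the deletion and other differences of this clone cannot be told apart. With 1 list per line no test between the lines was made, the read depth is unknown, and intervals cover counting error over peaks only. Of the genes that mark mESCs, Sox2 had 1 peak in WT and 0 in KO at its promoter (within 1 kb of the start). Pou5f1, Nanog and Esrrb had 0 there in either list. Within the gene or 5 kb around it, WT and KO had 1 and 2 peaks at Pou5f1, 2 and 2 at Nanog, and 5 and 8 at Esrrb. Spen itself had 1 promoter peak in each list, which does not check the deletion.

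Spen is a large RNA-binding protein that brings histone deacetylase complexes to chromatin and is needed for gene silencing by Xist. Very long mammalian genes owe their length to introns. Many encode cell adhesion molecules, synaptic scaffolds and channels used in neurons, and several lie at common fragile sites, where chromosomes break under replication stress. Their introns hold distal regulatory elements and many LINE elements, which are retrotransposons that copy themselves through RNA.

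The sequences below show what single peaks of each class look like. They are from the highest-scoring peaks of their class in long genes, where the score is the mean of the authors' 2 replicate values, whose scale is not named. Each is the central 300 bp, from mm9, on the plus strand, and each lies in an intron. Capitals mark a match, on either strand, to a short motif, and a match is a description of the letters only.
Cntn5, KO-only, chr9:10713695-10713994: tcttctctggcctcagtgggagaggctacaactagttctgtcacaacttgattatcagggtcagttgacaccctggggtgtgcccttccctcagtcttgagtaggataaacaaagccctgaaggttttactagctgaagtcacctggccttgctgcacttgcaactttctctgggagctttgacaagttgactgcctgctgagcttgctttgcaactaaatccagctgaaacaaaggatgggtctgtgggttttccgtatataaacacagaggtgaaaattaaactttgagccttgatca
Edil3, KO-only, chr13:89069345-89069644: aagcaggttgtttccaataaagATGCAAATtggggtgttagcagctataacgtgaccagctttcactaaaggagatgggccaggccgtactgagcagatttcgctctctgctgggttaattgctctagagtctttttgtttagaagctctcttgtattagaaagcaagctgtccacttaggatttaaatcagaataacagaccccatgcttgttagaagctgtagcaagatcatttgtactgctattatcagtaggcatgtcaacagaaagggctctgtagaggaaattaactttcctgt
Magi1, WT-only, chr6:93677711-93678010: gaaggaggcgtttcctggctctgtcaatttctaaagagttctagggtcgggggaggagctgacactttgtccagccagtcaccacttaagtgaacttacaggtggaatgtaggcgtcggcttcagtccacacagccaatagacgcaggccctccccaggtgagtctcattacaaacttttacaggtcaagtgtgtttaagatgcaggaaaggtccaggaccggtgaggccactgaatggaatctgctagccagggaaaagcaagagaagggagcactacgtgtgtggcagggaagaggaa
Grik2, shared, chr10:49137113-49137412: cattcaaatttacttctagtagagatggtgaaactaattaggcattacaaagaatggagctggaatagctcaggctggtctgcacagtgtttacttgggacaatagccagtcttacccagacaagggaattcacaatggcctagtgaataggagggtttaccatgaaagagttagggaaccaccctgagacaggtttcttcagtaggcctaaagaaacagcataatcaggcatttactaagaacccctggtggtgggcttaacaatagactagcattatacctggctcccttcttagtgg
Lphn3, shared, chr5:81985154-81985453: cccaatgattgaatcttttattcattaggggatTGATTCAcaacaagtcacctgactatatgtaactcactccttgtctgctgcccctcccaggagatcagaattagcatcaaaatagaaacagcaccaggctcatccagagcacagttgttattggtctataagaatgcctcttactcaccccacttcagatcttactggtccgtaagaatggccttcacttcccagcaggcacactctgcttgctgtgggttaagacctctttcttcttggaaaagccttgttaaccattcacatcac

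The Cntn5 peak, in the gene of a neuronal adhesion molecule, had the highest score among KO-only peaks in long genes, with replicate values of 34.6 and 31.2. It lay in intron 1, 191 kb from the 5′ end of the gene, and had an L1Md_F match within 8 kb. L1Md_F is a mouse LINE subfamily, and a match means at least 500 bp of similarity to the L1Md_F element on chromosome 2 from 51982915 to 51985375. The Edil3 peak, in the gene of a secreted integrin ligand, had values of 15.98 and 32.2, no such match nearby, and the octamer ATGCAAAT that Oct4 binds. Its replicates differed by about as much as the lower value. The WT-only peak of the scaffold gene Magi1 had values of 20.9 and 24.4 and no motif match. Among shared peaks in long genes, the one with the highest KO score lay in the glutamate receptor gene Grik2, with 75.7 and 73.1 in WT and 94.3 and 79.3 in KO. The shared peak of Lphn3, a latrophilin receptor, had 63.4 and 67.7 in WT and 65.1 and 76.6 in KO, and holds the AP-1 motif TGANTCA. In long genes the strongest peaks found in 1 list had values well below those of the strongest shared peaks.

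Inside these genes 269 of 692 KO peaks (38.9%, 95% Wilson interval 35.3 to 42.6) had no WT counterpart. Of the 552 WT peaks, 126 (22.8%, interval 19.5 to 26.5) had no KO counterpart. Over all autosomal peaks more than 1 kb from a coding TSS (distal peaks), the background was 36.8% in KO and 30.0% in WT. The KO share therefore lay near its background, and the WT share lay below its own. KO-only outnumbered WT-only peaks by a ratio of 2.13 (interval 1.72 to 2.66) inside the long genes. It was 1.12 (interval 1.04 to 1.20) inside shorter coding genes and 1.502 (interval 1.42 to 1.59) outside coding genes. In WT the share found in 1 list was lower in long genes than in shorter genes, with a difference of -11.5 percentage points (interval -15.1 to -7.60), and lower than outside coding genes, with -4.995 points (interval -8.46 to -1.17). In KO the matching differences were 2.00 points (interval -1.81 to 5.92) and 2.23 points (interval -1.48 to 6.06), and both intervals held 0. With all peaks of the lists, the larger ratio in long genes thus went with a low WT-only share. Long genes took up 4.89% of shared WT distal peaks, 3.37% of WT-only peaks and 5.29% of KO-only peaks. They were poor in peaks in either list, with 3.52 WT and 4.41 KO peaks per Mb, against 6.26 and 6.51 in shorter genes and 5.16 and 5.88 outside coding genes.

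In the stronger peaks of each list, those with at least its median score, the KO-only share in long genes was 17.1% and the WT-only share 5.78%, a ratio of 4.46 (interval 2.42 to 8.88). The other distal peaks had 14.2% and 7.06% at this setting, a ratio of 2.40 (interval 2.12 to 2.73), so the intervals overlapped. At an IDR of at most 0.01, where the IDR is the authors' measure of disagreement between replicates, the ratio was 2.70 (interval 1.84 to 4.06) in long genes, 0.937 (interval 0.816 to 1.08) in shorter genes and 1.72 (interval 1.55 to 1.91) outside coding genes. The interval of long genes did not overlap that of shorter genes and overlapped that of peaks outside coding genes. There the KO-only share in long genes was 23.9% (interval 20.03 to 28.2), against 16.2% in shorter genes and 20.4% outside coding genes, of which the interval held the latter. The interval of the WT-only share (11.1%, 8.14 to 14.9) held the 12.95% outside coding genes and lay below the 16.2% of shorter genes. With both lists cut to equal length by score the ratio was 1.89 in long genes and 1.16 in the other distal peaks. The annotated spans of Gm20388 (4.43 Mb), Fgfr2 (3.01 Mb) and Arfip1 (1.39 Mb) hold 74, 32 and 6 other coding genes, so these spans read as chains of neighbouring genes and not as single long genes. They held 81 of the WT and 75 of the KO peaks. Without these 3 spans the shares were 20.6% in WT and 40.0% in KO, and the ratio was 2.55 (interval 2.01 to 3.25).

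**Figure D1:**
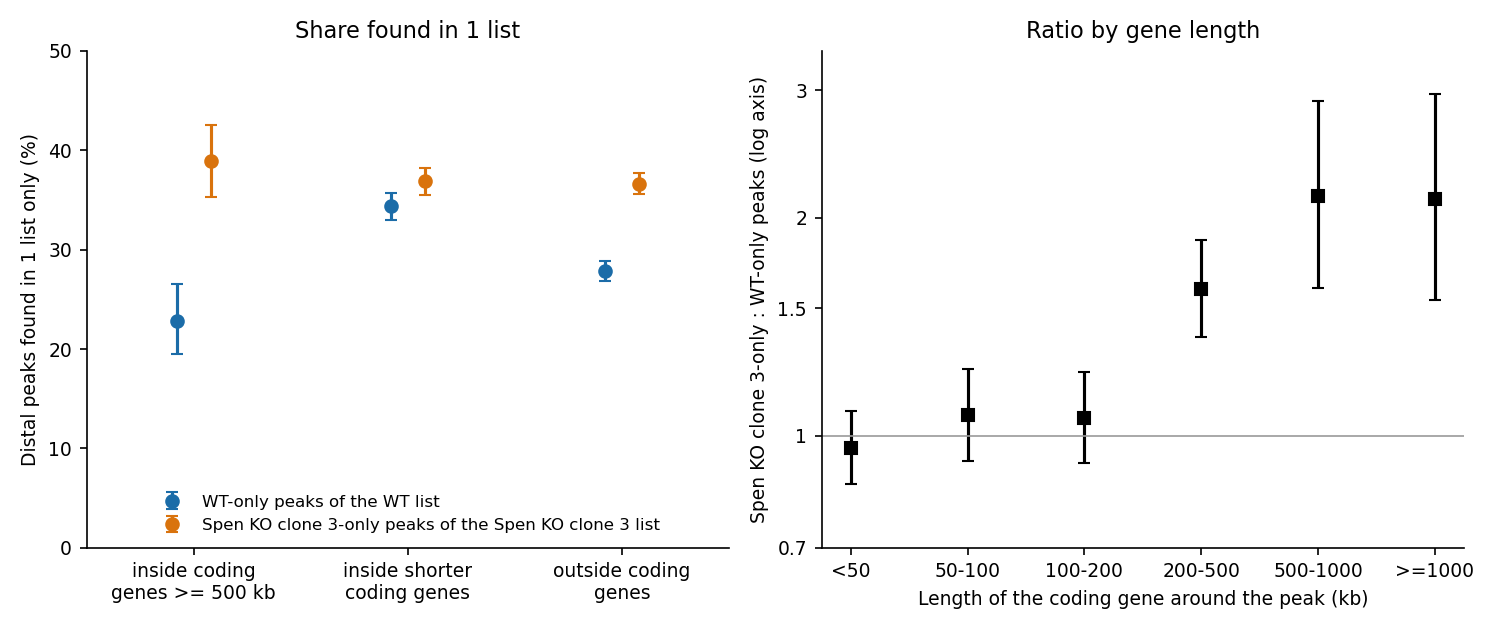
Left, percent of distal autosomal peaks found in 1 list only, by position, for WT (blue) and KO (orange), with 95% Wilson intervals; right, ratio of KO-only to WT-only peaks by the length in kb of the coding gene around the peak, on a log axis with 95% intervals. The WT share was lowest inside coding genes of 500 kb or more, at 22.8%, and the ratio went from 0.963 in genes under 50 kb to 2.12 in genes of 1000 kb or more.

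The ratio of KO-only to WT-only peaks was higher in the longer gene classes. It was 0.963 (interval 0.857 to 1.08) for genes under 50 kb, 1.07 for 50 to 100 kb and 1.06 for 100 to 200 kb. It was 1.59 (interval 1.37 to 1.86) for 200 to 500 kb, 2.14 (interval 1.60 to 2.90) for 500 to 1000 kb and 2.12 (interval 1.54 to 2.96) above that. With all genes, a step to higher ratios therefore lay below 500 kb, and the classes on either side of 1000 kb did not differ beyond their intervals. Without the 3 spans, genes above 1000 kb had a ratio of 3.54 (interval 2.30 to 5.59). This interval lay above that of 200 to 500 kb and overlapped that of 500 to 1000 kb. Without peaks near L1Md_F matches the ratio was 1.36 for 200 to 500 kb, 1.58 (interval 1.15 to 2.18) for 500 to 1000 kb and 1.55 (interval 1.08 to 2.23) above that. Close to the length threshold, Edil3 (501.8 kb) held 0 WT and 1 KO distal peak, Dock1 (503.0 kb) 6 and 7, and Car10 (503.7 kb) 0 and 0. Just under it, Dnm3 (495.6 kb) held 2 and 3, Ank3 (493.2 kb) 2 and 1 and Abca13 (492.3 kb) 2 and 2. Close to the TSS threshold, the nearest peaks kept lay 1006 bp from a coding TSS in WT (Fam190a, values 18.3 and 13.9, shared) and 1049 bp in KO (Rabgap1l, values 19.7 and 19.6, found in that list only). The nearest peaks left out lay at 950 bp in WT (Schip1, values 31.9 and 23.2) and 979 bp in KO (Ctnna2, values 18.8 and 17.4), both shared.

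Peaks inside long genes lay far from promoters, and the ratio moved with that distance. The median distance to a coding TSS was 104 kb for KO-only peaks (interval 85.3 to 129), 63.9 kb for WT-only peaks (interval 48.9 to 85.7) and 98.3 kb for the shared peaks of the KO list. Over all distal peaks the medians were 26.7 kb in WT and 32.3 kb in KO. More than 200 kb from a TSS, long genes held 85 KO-only peaks against 19 of WT, which gave a ratio of 4.47 (interval 2.70 to 7.79). Other distal peaks at that distance had a ratio of 4.68 (interval 3.95 to 5.59). From 100 to 200 kb the ratio was 2.11 (interval 1.32 to 3.43) in long genes and 2.02 (interval 1.74 to 2.35) elsewhere. From 50 to 100 kb it was 1.69 (interval 1.02 to 2.86) against 1.39, and from 20 to 50 kb 1.67 (interval 1.01 to 2.79) against 1.22. Within 20 kb it was 1.38 (interval 0.813 to 2.39) against 0.977. At each distance the interval for long genes held the value of the other distal peaks. When the other distal peaks were weighted to the distances found in long genes, the share found in 1 list came to 39.0% in KO and 26.3% in WT. The values observed in long genes were 38.9% and 22.8%, and both intervals held the weighted values, the WT one narrowly (upper bound 26.5%). Without the 3 spans the WT share of 20.6% (interval 17.2 to 24.5) lay below the weighted 25.4%, and within 20 kb of a TSS the ratio was 2.08 (interval 1.04 to 4.38), above the 0.977 elsewhere.

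**Figure D2:**
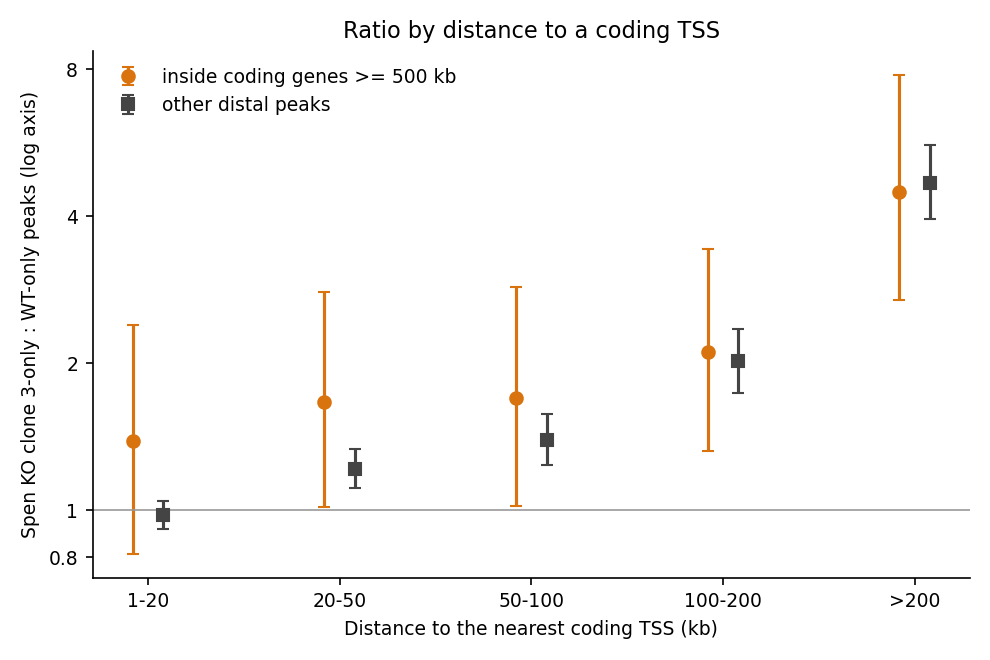
Ratio of KO-only to WT-only peaks on a log axis by distance in kb from the peak's midpoint to the nearest coding TSS, for peaks inside coding genes of 500 kb or more (orange circles) and all other distal autosomal peaks (black squares), with 95% intervals. Both sets went up with distance, to 4.47 and 4.68 beyond 200 kb, and at each distance the intervals of the 2 sets overlapped.

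Counted by gene, 100 of the 172 genes with a distal peak had more KO-only than WT-only peaks. In 24 there were more WT-only peaks and 48 had equal numbers, of which 37 had none of either kind. Of 4141 shorter coding genes with a distal peak, 1271 had more KO-only and 1127 more WT-only peaks. A distal peak of the KO list was present in 171 genes and a distal WT peak in 149. In 23 genes only the KO list had distal peaks. In 1 gene, the receptor phosphatase gene Ptprm, only the WT list did, with 1 distal peak (named after its values were seen). Ptprm had promoter peaks in both lists, as did some of the 23 genes, such as Cadm2 and Robo2. In 4141 shorter coding genes, 843 (20.4%) had distal peaks in the KO list only and 786 (19.0%) in the WT list only. The long genes, which hold more peaks each, had 13.4% and 0.581%. Taking overlapping peaks as 1 locus, there were 821 loci, of which 420 held peaks of both lists, and a gene with any peak had a median of 3 loci. On 18 of 19 autosomes the long genes held more KO-only than WT-only peaks. The exception was chromosome 11, with 3 and 6. The other distal peaks had the same excess on 16 of 19 autosomes, so this count was near its background.

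Genes with the largest excess of KO-only peaks were Macrod2, Gpc5, Cntnap2 and 5033411D12Rik. Macrod2 (ENSMUSG00000068205.7, chromosome 2 from 140221045 to 142218702, plus strand), which encodes an enzyme that removes ADP-ribose, had 8 shared peaks, 6 KO-only and 0 WT-only peaks. Gpc5 (ENSMUSG00000022112.6, chromosome 14 from 115491437 to 116923659, plus strand), a glypican proteoglycan of the cell surface, had 2 shared, 6 KO-only and 0 WT-only peaks. Cntnap2 (ENSMUSG00000039419.10, chromosome 6 from 45010060 to 47251368, plus strand), an adhesion protein of the neurexin family, had 3 shared, 8 KO-only and 3 WT-only peaks. 5033411D12Rik (ENSMUSG00000055137.6, chromosome 13 from 16949689 to 17786566, minus strand) had 0 WT and 5 KO distal peaks, and a promoter peak in each list. An excess of 4 was found in Nrxn3, a presynaptic adhesion gene, Etl4, Astn2, which acts in neuronal migration, and the transcription factor gene Sox5, each with 4 against 0. The scaffold gene Magi2, the cGMP-dependent kinase gene Prkg1 and the cadherin gene Cdh18 had 5 against 1. In all, 27 genes had an excess of at least 3 KO-only peaks and 4 genes an excess of at least 3 WT-only peaks.

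The WT-only excess was largest in the Gm20388 span (22 WT-only, 13 KO-only and 34 shared peaks), which covers 74 other coding genes. Among single genes, Ptprg (ENSMUSG00000021745.7, chromosome 14 from 12386046 to 13074555, plus strand), a receptor tyrosine phosphatase, had 4 WT-only and 0 KO-only peaks beside 4 shared ones. Slit3 (ENSMUSG00000056427.4, chromosome 11 from 34934726 to 35522009, plus strand), a secreted axon guidance ligand, had 4 against 0 with 1 shared peak. Syt1 (ENSMUSG00000035864.8, chromosome 10 from 107934706 to 108448038, minus strand), the calcium sensor of synaptic vesicles, had 3 against 0 with 1 shared peak. The syntrophin gene Sntg1 had 3 against 1. The adhesion gene Negr1, the polarity gene Pard3, the splicing regulator gene Celf2 and the sialyltransferase gene St6galnac3 had 2 against 0.

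**Figure D3:**
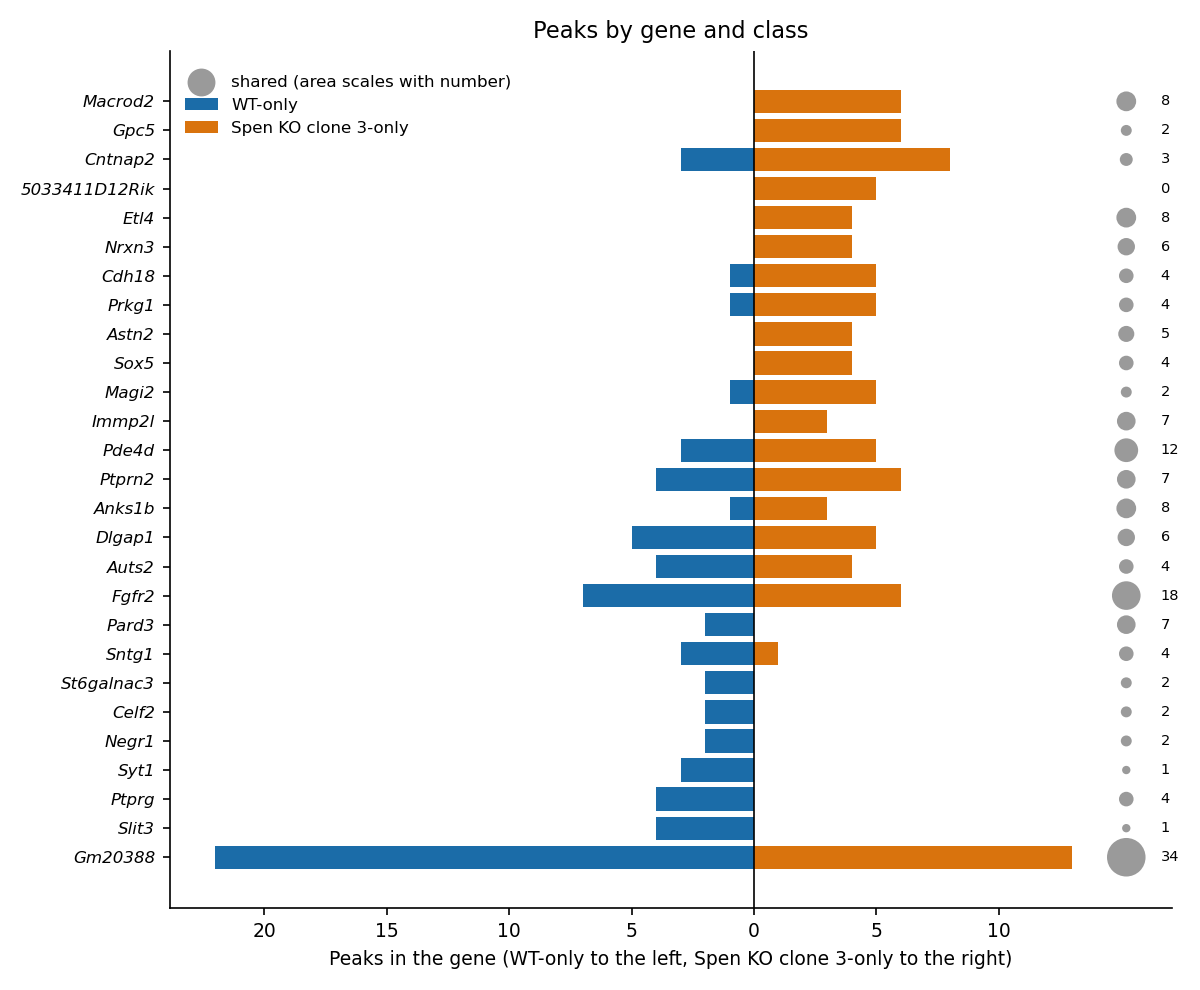
Number of peaks in named genes, with WT-only peaks (blue) to the left and KO-only peaks (orange) to the right, and the number of shared peaks of the KO list in grey at the right edge. Genes are ordered by the difference, from 6 more KO-only peaks in Macrod2 and Gpc5 to 9 more WT-only peaks in the Gm20388 span.

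Genes with many loci were not all one-sided. The cAMP phosphodiesterase gene Pde4d held 20 loci, with 12 shared, 3 WT-only and 5 KO-only peaks. Ptprn2, a receptor-like phosphatase of secretory granules, held 17 loci in 0.792 Mb, or 21.5 per Mb, with 4 WT-only and 6 KO-only peaks. Dlgap1, a postsynaptic scaffold gene, held 16 loci with 5 peaks of each kind. Auts2, a gene of a nuclear regulator, held 12 loci with 4 of each kind. Anks1b had 1 WT-only and 3 KO-only peaks beside 8 shared ones. Immp2l, which encodes a mitochondrial peptidase, had 0 WT-only and 3 KO-only peaks. The Fgfr2 span held 30 loci with 7 WT-only and 6 KO-only peaks.

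Single peaks of these genes were mostly of low to middle rank. In Macrod2 the scores of the KO-only peaks ran from 13.3 to 18.7, at percentiles 22.8 to 54.3 of the list, and 4 of the 6 had no L1Md_F match nearby. The strongest shared peak of Macrod2, 282 kb from the 5′ end, had values of 48.6 and 52.4 in KO. In Cntnap2, KO-only peaks stood from 426 to 2234 kb along the gene, while its 3 WT-only peaks stood between 1985 and 2130 kb, towards the 3′ end. In 5033411D12Rik the 5 peaks lay between 41.8 and 629 kb from the 5′ end, with scores from 14.9 to 24.1, and 3 of them were near L1Md_F matches. In Ptprg the WT-only peaks were weak, with scores from 8.69 to 13.8 at percentiles 3.08 to 18.7 of the WT list. In Syt1 the 3 WT-only peaks lay between 473 and 486 kb from the 5′ end of the 513 kb gene, with scores from 10.9 to 21.4.

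**Figure D4:**
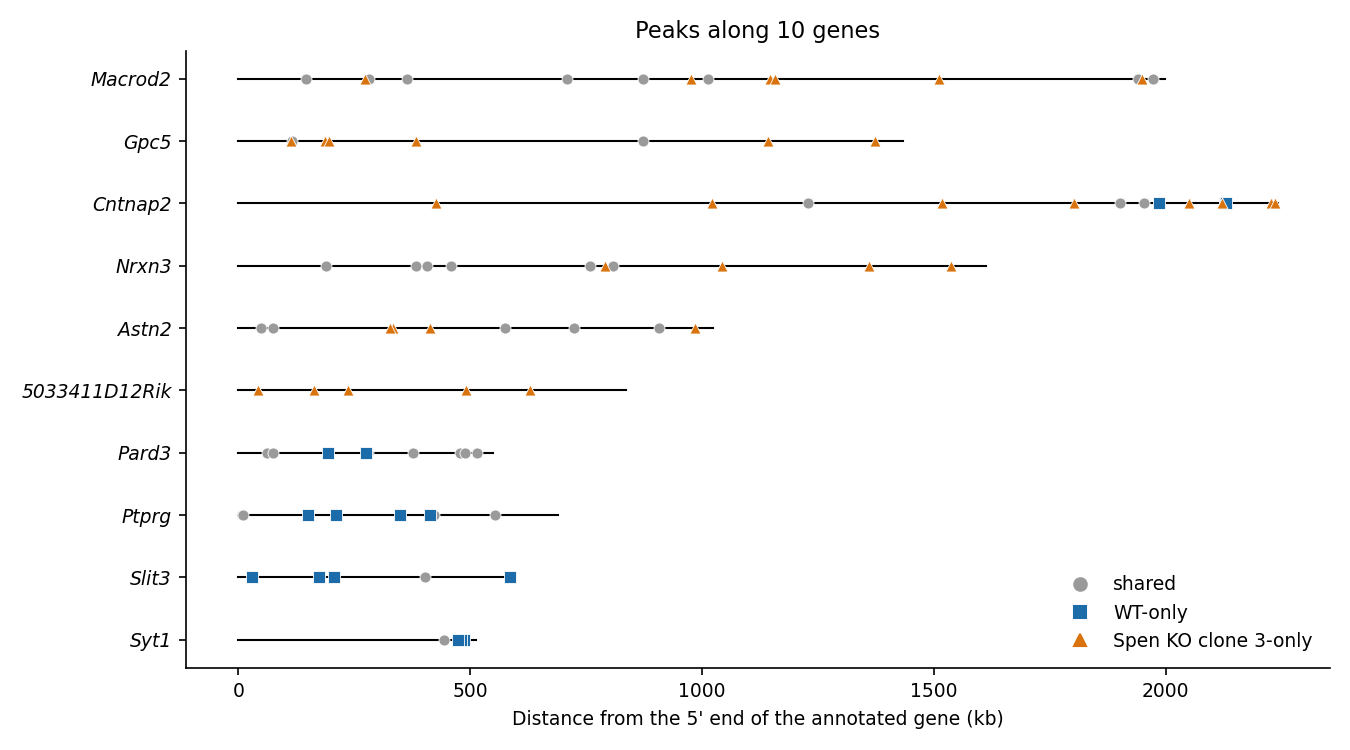
Peaks along 10 genes, drawn to scale as distance in kb from the 5′ end of the annotated gene (black line), with shared peaks as grey circles, WT-only peaks as blue squares and KO-only peaks as orange triangles. KO-only peaks were spread over the length of Macrod2, Gpc5 and Cntnap2, and the 3 WT-only peaks of Syt1 sat near its 3′ end.

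Of the 184 genes, 12 held no distal peak of either list, though some of them had promoter peaks. The 5 longest were Kcnip4 (1.14 Mb), which encodes a partner of potassium channels, Rasgrf2 (0.882 Mb), an exchange factor for Ras, the nuclear receptor gene Rora (0.734 Mb), Fstl5 (0.636 Mb) and the laminin gene Lama2 (0.636 Mb). Genes without a distal peak were shorter, with a median of 590 kb against 745 kb for genes with one. Kcnip4 had a peak at 3 of its 5 coding start sites in each list and none elsewhere in the gene.

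The genes were grouped by function, with 135 of the 184 placed in at least 1 list and some in more than 1. All 50 cell adhesion and synapse organisers held a distal peak, and 34 of them had more KO-only peaks against 5 with more WT-only peaks. Of all 184 genes, 172 held a distal peak, and 100 had more KO-only peaks against 24 with more WT-only peaks. The ratio of the adhesion and synapse list was 2.87 (86 against 30 peaks, interval 1.87 to 4.50). The 18 genes of common fragile sites, such as Macrod2, Immp2l and Auts2, had 13 against 2 and a ratio of 3.07 (43 against 14, interval 1.65 to 6.08). The 22 signalling genes had 14 against 3 and a ratio of 2.00 (interval 1.16 to 3.56). The 19 channel and receptor genes had 7 against 2 and a ratio of 1.83 (interval 0.621 to 6.04), and the 11 regulators of transcription and RNA had 4 against 1 and 1.78 (interval 0.740 to 4.56). The 28 genes of trafficking, polarity, cytoskeleton and repair had 11 against 7 and 1.44 (interval 0.762 to 2.80). For all 184 genes the ratio was 2.13 and the median excess per gene was 1. The median excess was also 1 in the adhesion, fragile site and signalling lists, and 0 in the others. The intervals of the 6 lists all held 2.13. The lists were not counted again without the 3 spans, whose peaks can lie in or near other genes.

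The imbalance was present whether or not the gene had a promoter peak in the lists. Leaving out the 3 spans, 99 genes had a peak within 1 kb of one of their own coding TSSs in both lists, 13 in WT only, 16 in KO only and 53 in neither. In genes with a promoter peak in both lists the ratio was 2.36 (163 against 69 peaks, interval 1.77 to 3.18). In genes with none it was 2.89 (55 against 19, interval 1.69 to 5.17). Genes with a promoter peak in WT only had 15 against 5 peaks, and those with one in KO only had 14 against 4. Loci numbered 5.56 per Mb in genes with a promoter peak in both lists, 3.13 and 3.57 per Mb with one in WT only or KO only, and 3.99 per Mb with none. RNA levels were not used here.

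Sequence beside LINE elements differed most between the classes. An L1Md_F match lay within 8 kb of 83 of 269 KO-only peaks (30.9%, interval 25.6 to 36.6), 7 of 126 WT-only peaks (5.56%, interval 2.72 to 11.02) and 66 of 423 shared peaks of the KO list (15.6%). The KO-only share was 25.3 points above the WT-only share (interval 17.7 to 31.7) and 15.3 points above the shared one (interval 8.82 to 21.8). WT-only peaks lay below the shared peaks of their list, with a difference of -10.2 points (interval -14.9 to -3.86). Multi-copy peaks, made up to at least 50% of 24-mers with 10 or more genomic copies, followed the same order, with 28.3% of KO-only, 6.35% of WT-only and 16.1% of shared peaks. In shorter genes the L1Md_F share of KO-only peaks was 9.75%, and outside coding genes it was 29.8%. Over all KO peaks the share in long genes was 14.3 points above that in shorter genes (interval 11.3 to 17.6) and 0.915 points above that outside coding genes (interval -2.12 to 4.24). Without the 3 spans the latter difference was 3.37 points (interval 0.0489 to 6.997). Near L1Md_F matches the long genes held 83 KO-only peaks against 7 of WT, which gave a ratio of 11.9 (interval 5.51 to 30.4). The other distal peaks near such matches had a ratio of 6.42 (1079 against 168, interval 5.45 to 7.60). Away from them the ratio was 1.56 (186 against 119, interval 1.24 to 1.98), with shares in 1 list of 34.3% for KO and 24.9% for WT. For the other distal peaks away from matches the ratio was 1.08 (interval 1.03 to 1.14) and the shares were 33.8% and 32.04%, so that here too the KO share was near its background and the WT share below it. By gene, 73 genes then had more KO-only and 29 more WT-only peaks. Only uniquely mapping reads were used for the lists, so peaks inside repeats can be under-called in both, and the part of this in the difference was not tested.

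Other sequence features differed less between the classes. Median GC content was 51.6% in KO-only peaks (interval 50.2 to 52.6), against 50.9% for WT-only peaks and 49.6% for the shared peaks of the KO list. KO-only peaks had a median length of 469 bp, WT-only peaks 418 bp and shared peaks of the KO list 521 bp. An exon of a coding gene was overlapped by 4.48% of KO and 4.35% of WT peaks, against 18.5% and 19.7% in shorter genes. The motif windows were again the central 300 bp, read in either direction. The octamer ATGCAAAT was in 9 of 269 KO-only (3.35%), 4 of 126 WT-only (3.17%) and 23 of 423 shared peaks (5.44%), against 4.47% of all distal KO peaks. The AP-1 motif TGANTCA was in 9.29% of KO-only, 9.52% of WT-only and 13.9% of shared peaks, against 10.6% of all distal KO peaks. The Klf4 motif GGGNGTGG was in 13.4%, 15.9% and 16.1% against 17.3%, the CTCF motif AGNNGGCGC in 5.204%, 5.56% and 6.38% against 6.87%, and the Esrrb motif TCAAGGTCA in 1.49%, 0% and 0.946% against 1.01%. For AP-1 the difference of KO-only from shared peaks was -4.65 points (interval -9.31 to 0.385), and -5.15 points without the 3 spans (interval -9.89 to -0.0363).

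Along the gene, WT-only peaks were more often in the last 20%, but their median position was not nearer the 3′ end. It was 53.2% along the gene for WT-only peaks (interval 41.7 to 61.4) and 53.8% for shared WT peaks. Of the WT-only peaks, 35.7% (interval 27.9 to 44.4) lay in the last 20% of the annotated gene, against 23.7% of the shared WT peaks, a difference of 12.01 points (interval 3.09 to 21.5). For KO-only peaks the share was 24.9%, against 23.6% of shared peaks of the same list, a difference of 1.27 points (interval -5.15 to 7.95). The share in the first 10% was 14.3% for WT-only and 11.9% for KO-only peaks, and the intervals overlapped. Without the 3 spans the WT-only share in the last 20% was 36.1% (35 of 97 peaks) against 24.9% of shared WT peaks, and the interval of the difference still lay above 0 (1.23 to 22.0). From 70 to 80% along the gene WT-only peaks were scarcer, with 2.06% (2 of 97) against 11.9% of shared KO peaks. The excess therefore depended on where the cut was placed.

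The ranks of shared peaks differed more between the lists in long genes than elsewhere. The rank shift is the score percentile in the KO list minus that of the overlapping WT peak. As the lists differ in length and make-up, it is read against the other distal peaks and not against 0. It was above 0 in 298 of 423 shared peaks in long genes (70.4%), against 55.0% in shorter genes and 60.6% outside coding genes. Its median in long genes was 8.22 percentile points (interval 6.48 to 10.8). In shorter genes the median was 1.33 (interval 0.811 to 2.07) and outside coding genes 3.29 (interval 2.83 to 3.80), so the shift in long genes was beyond both intervals. With both lists cut to equal length by score the medians were 7.54 (interval 5.19 to 10.2), 0.303 (interval -0.0703 to 0.778) and 2.13 (interval 1.63 to 2.62). Near L1Md_F matches the median in long genes was 19.7 (interval 14.5 to 29.1, 66 peaks), against 9.86 in shorter genes and 11.96 outside coding genes. Away from them it was 7.18 (interval 4.15 to 8.92), against 0.889 and 2.04. The shift also went with distance to a TSS. In long genes it was 0.493 within 20 kb of a TSS (interval -2.72 to 4.34), 10.8 from 50 to 100 kb (interval 7.31 to 17.2) and 12.2 beyond 200 kb (interval 7.18 to 15.4). Other distal peaks at these distances had 0.655, 2.74 (interval 1.91 to 3.92) and 9.84 (interval 8.72 to 11.1). From 50 to 100 kb the intervals did not overlap, and at the other distances they did. In single genes, picked after their values were seen, the median shift was 18.7 in Macrod2 (8 shared peaks), 21.3 in Immp2l (7), 22.5 in Dlgap1 (6) and 22.6 in Anks1b (8). It was -2.92 in Ptprg (4) and -6.90 in Etl4 (8), and Etl4 had 4 KO-only and no WT-only peaks.

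**Figure D5:**
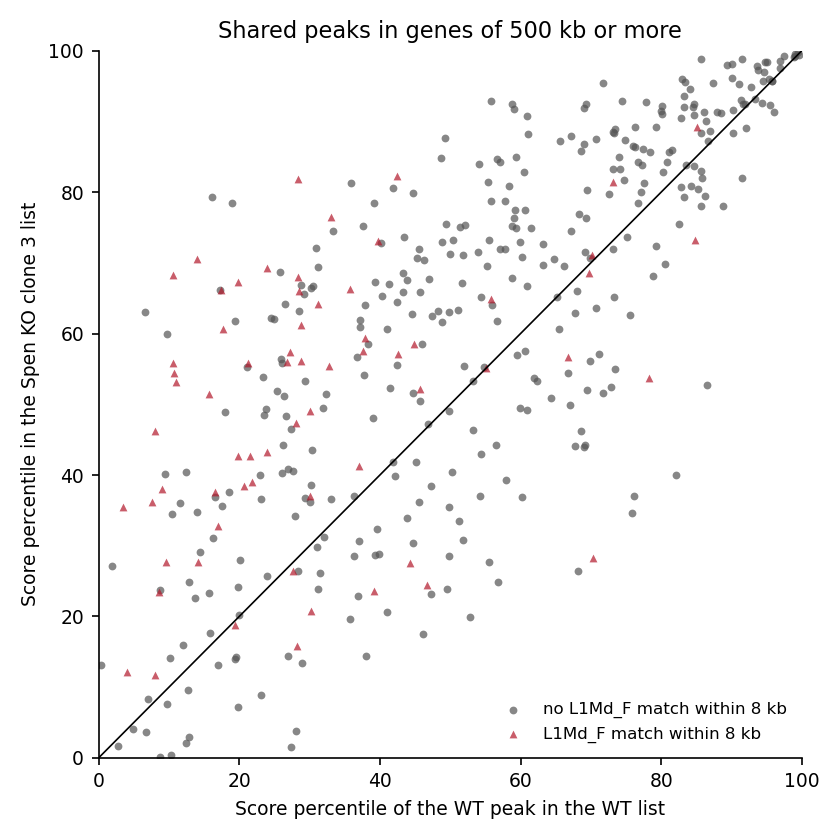
Score percentile of each of the 423 shared peaks inside coding genes of 500 kb or more in the KO list (vertical axis) against that of the overlapping WT peak in the WT list (horizontal axis), with peaks near L1Md_F matches as red triangles and the others as grey circles. The line marks equal rank, and 298 peaks lie above it.

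On chromosome 16, 3 of the long genes overlap the stretch from 60 to 75 Mb. The adhesion gene Cadm2 (ENSMUSG00000064115.7, 66655666 to 67621153, minus strand) had 0 WT peaks and 1 KO-only peak, 287 kb from its 5′ end, with values of 19.7 and 19.9. Robo2 (ENSMUSG00000052516.11, 73892551 to 74412070, minus strand), a receptor of Slit ligands, had 0 WT peaks and 1 KO-only peak with values of 22.1 and 18.1. Both peaks were near L1Md_F matches. The receptor gene Epha6 held 1 shared peak, which lay before 60 Mb. Each of the 3 genes had promoter peaks in both lists. Robo1 was annotated at 383 kb and fell below the length threshold.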

How the data were processed

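The data are ATAC-seq peak lists of HATX WT and Spen KO clone 3 mESCs. Per the study's methods, the authors aligned trimmed reads (CutAdapt, Bowtie2, mm9), used only unique, proper pairs without Picard duplicates, called peaks in 2 technical replicates by MACS2 (q-value up to 0.01, without its shifting model), and kept those under an IDR of 0.05. The lists that the authors deposited hold coordinates, a score in either replicate and the IDR. The unit of the replicate values is not named, so they were used as ranks within a list. The authors' differential peaks came from read counts, which were not used here.

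Peaks were assigned to genes by their midpoint, with the GENCODE annotation of mm9. A peak inside a long and a shorter gene counted for the long gene. TSSs were those of coding transcripts, and the motif windows were 300 bp. Copies of 24-base sequences were counted on both strands of the genome. L1Md_F matches were found with BLAST 2.17.0 (at least 80% identity, e-value up to 1e-10). Shares carry 95% Wilson intervals, differences of shares Newcombe intervals, ratios exact binomial intervals and medians order-statistic intervals. They treat peaks as independent, although peaks of 1 gene share their surroundings, and cover counting error only. No test between the lines was made. Overlaps, gene assignment, TSS distances, copy counts and intervals were tested on simulated data.

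Named genes were the 15 with the most loci and the 10 with the largest excess of either kind (at least 2 peaks). The 5 longest without a distal peak and those on chromosome 16 from 60 to 75 Mb were also named. Named peaks were the 5 with the highest score of each class, of which some are described. Some named genes and sequences are not reported here. Other peaks and genes named beside them were chosen after their values were seen. The members, the gene lists and the comparisons were chosen with earlier results of these data known. The 3 spans, the L1Md_F alternative, the gene length classes, the distance classes, the weighting by distance, the rank shift in lists of equal length and the counts over other distal peaks and shorter genes under these settings were added after seeing the values. Versions were scipy 1.17.1, pysam 0.24.0, pandas 2.3.3 and numpy 2.4.6 under Python 3.11.15.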

Additional observations from a re-analysis of the deposited data

How the results depend on the processing

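No paired analysis was possible because each line has 1 peak list and no result comes from a test. The ratio of KO-only to WT-only peaks in long genes lay above 1 in all 17 alternatives tried. In 13 of them it stayed inside the interval of the reported value. The other 4 settings were an IDR of at most 0.01 (2.70), at least the median score of each list (4.46), no multi-copy peaks (1.64) and no peaks near L1Md_F matches (1.56). Under the same 4 settings the KO-only share was 23.9%, 17.1%, 35.2% and 34.3%, against 19.0%, 14.2%, 34.0% and 33.8% of the other distal peaks. At the stricter IDR its interval (20.03 to 28.2) lay above the value of the other distal peaks, and at the remaining settings it held that value. The WT-only share was 11.1% at the stricter IDR and 5.78% at the higher score, where its interval held the 14.2% and 7.06% of the other distal peaks, and stayed inside its interval in the other 15. Genes with more KO-only peaks numbered 58 with genes of 750 kb or more, 62 at the stricter IDR and 40 at the higher score, against 11, 20 and 9 genes with more WT-only peaks. Long genes held 6.72% of KO-only distal peaks at the stricter IDR and 6.52% at the higher score. The rank shift stayed inside its interval in all 4 alternatives. With whole peaks searched in place of 300 bp, GGGNGTGG was in 19.3% of KO-only peaks. The cause of these moves was not tested, and each stricter setting leaves fewer peaks.

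Presence in a list depends on its depth, which is unknown, and a peak missing from a list is not shown to be closed. One clone stands for the deletion, and the doxycycline state of the lists is not stated.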
